A study of Mus musculus with 48 samples.

Results

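Genes of the bile duct epithelium and of the ductular reaction, 9 in all, were followed across the livers of mice with an altered liver X receptor-α (LXRα, encoded by Nr1h3): Krt7, Krt19, Krt23, Epcam, Sox9, Cldn4, Cldn7, Cdh1 and Prom1. They were found by the Ensembl identifier of their mouse symbol, and they are 9 of the 55416 genes with a count in each liver. In livers homozygous for a dominant-negative LXRα allele, 8 of the 9 were higher than in wild-type livers of their own study, beside 29.1% of all genes tested (59.1% when scaled by library size alone), and Krt23 was the exception. The rise ran from 3.94-fold for Sox9 to 16.05-fold for Epcam, apart from Cldn4, which had 6 reads in the 7 wild-type livers used from that study and was tested only because of its reads in the homozygous livers. With 2 left-out livers put back, the same 8 were higher, from 2.27-fold for Sox9 to 5.25-fold for Epcam apart from Cldn4. In livers homozygous for an LXRα knockout none of those 8 passed the test, beside 11.5% of all genes called higher and 7.87% lower. The difference between the homozygous effects of the studies passed the test for all 8 in 46 livers, beside 16.5% of all genes called higher. In all 48 livers it passed for 3 of them, beside 4.05%. Heterozygous livers of either study showed no called change in any of the 9, beside 2.3% of all genes called in the knock-in and 0.0191% in the knockout study.

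The samples were liver RNA from 48 mice, given in the labels as C57Bl/6J, with 8 wild-type (WT), 8 heterozygous (HET) and 8 homozygous (HOM) animals in each of 2 studies. Mice of the first study carried a dominant-negative point mutation introduced by genome editing (DN:WT, DN:HET and DN:HOM), and mice of the second carried a knockout allele of the receptor (KO:WT, KO:HET and KO:HOM). All 48 animals, controls included, ate a western diet with 0.2% cholesterol for 8 weeks, from about 8 to about 16 weeks of age. Both alleles are carried in every cell of the body, the animals came from crosses of heterozygotes, and the studies were run at different sites, so that allele, site and colony cannot be told apart between them. The DN animals were male, and the KO experiment was described as a repeat of the DN design.

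Nr1h3 itself had a median of 89.1 CPM (counts per 1000000 reads on genes) in DN:WT, 88.6 in DN:HET and 93.0 in DN:HOM livers, and of 84.0 in KO:WT, 55.5 in KO:HET and 26.2 in KO:HOM livers. The level of a knock-in allele does not check its genotype, whereas the KO:HOM range (23.6 to 30.04 CPM) lay below the KO:WT range (74.8 to 101 CPM). The livers labelled DN:WT animal 10 and DN:HOM animal 12 were left out of the main fit, because a list of per-animal measurements of the DN mice holds neither. This left 46 livers, with 7 in DN:WT, 7 in DN:HOM and 8 in each other group. The calls of the 9 genes and most list counts are given for all 48 livers as well. In the left-out DN:WT liver Epcam stood at 19.2 CPM and Cdh1 at 208 CPM, and in the left-out DN:HOM liver at 0.713 and 16.1 CPM. Whether the labels of this pair were exchanged, which bears on each value given for all 48 livers, was not tested, and no liver was moved to another group. Livers held 5332897 to 16961379 reads on genes (median 15879972), and 2 of them, 1 KO:HET and 1 KO:HOM, held fewer than 10000000. The labels name each mouse as a separate animal, so the spread is between mice.

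Bile ducts are lined by cholangiocytes, epithelial cells that modify bile by secreting and absorbing water and ions and that carry a primary cilium. They differ from hepatocytes in their keratins, adhesion molecules and tight junction proteins. In chronic liver injury, cells with these markers multiply around the portal tracts in small irregular ductules, which is known as the ductular reaction and usually comes with scar-forming cells and leukocytes. In whole liver these cells are a small minority, and in bulk RNA fewer or more cells of a type cannot be told apart from less or more RNA per cell.

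The positions of the genes are those of GRCm39, the build of the alignment, in the GENCODE M39 annotation. Krt7 lies on chromosome 15, Krt19, Krt23, Sox9 and Cldn7 on chromosome 11, Epcam on chromosome 17, Cldn4 and Prom1 on chromosome 5 and Cdh1 on chromosome 8. Cldn7 shares 331 exon bases with Elp5 on the opposite strand, a gene with a median of 276 reads, and the counts used here separate the strands. Sox9 shares 542 exon bases with the antisense gene BC006965, which had a median of 1 read.

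Because 8 of the genes changed together, their promoters were read from the genome, from 250 bases before to 50 after the start of the canonical transcript. The 5 printed here are Cdh1 (chr8:107329733-107330032, plus strand), Cldn4 (chr5:134975739-134976038, minus strand), Cldn7 (chr11:69855972-69856271, plus strand), Epcam (chr17:87943860-87944159, plus strand) and Krt23 (chr11:99383914-99384213, minus strand), the first 4 as genes of junctions and adhesion and the last as the gene that did not rise. Each is written 5′ to 3′ on the strand of its gene, and capitals mark matches to the motifs named below.
Cdh1: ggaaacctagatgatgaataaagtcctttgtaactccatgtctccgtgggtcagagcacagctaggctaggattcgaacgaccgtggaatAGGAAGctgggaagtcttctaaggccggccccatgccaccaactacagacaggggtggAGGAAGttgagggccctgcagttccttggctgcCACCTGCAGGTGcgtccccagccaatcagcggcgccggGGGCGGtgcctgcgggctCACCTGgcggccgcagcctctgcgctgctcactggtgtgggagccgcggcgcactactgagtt
Cldn4: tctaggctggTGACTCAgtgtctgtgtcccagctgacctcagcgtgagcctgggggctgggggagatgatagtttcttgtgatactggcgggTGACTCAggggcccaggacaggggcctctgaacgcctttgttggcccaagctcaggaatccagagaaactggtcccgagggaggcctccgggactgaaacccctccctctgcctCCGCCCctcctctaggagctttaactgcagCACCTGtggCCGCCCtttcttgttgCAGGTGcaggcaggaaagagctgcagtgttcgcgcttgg
Cldn7: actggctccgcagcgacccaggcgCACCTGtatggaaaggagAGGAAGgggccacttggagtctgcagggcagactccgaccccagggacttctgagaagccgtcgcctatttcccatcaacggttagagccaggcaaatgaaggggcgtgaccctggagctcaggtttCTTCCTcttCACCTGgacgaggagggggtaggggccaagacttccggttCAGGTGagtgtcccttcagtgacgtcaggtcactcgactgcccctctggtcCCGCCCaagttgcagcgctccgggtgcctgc
Epcam: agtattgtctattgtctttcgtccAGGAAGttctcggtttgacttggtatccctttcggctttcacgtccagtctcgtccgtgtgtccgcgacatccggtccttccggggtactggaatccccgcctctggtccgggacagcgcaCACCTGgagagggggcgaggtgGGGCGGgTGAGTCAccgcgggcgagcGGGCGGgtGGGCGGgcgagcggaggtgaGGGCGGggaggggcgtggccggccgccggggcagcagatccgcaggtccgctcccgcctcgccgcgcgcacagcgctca
Krt23: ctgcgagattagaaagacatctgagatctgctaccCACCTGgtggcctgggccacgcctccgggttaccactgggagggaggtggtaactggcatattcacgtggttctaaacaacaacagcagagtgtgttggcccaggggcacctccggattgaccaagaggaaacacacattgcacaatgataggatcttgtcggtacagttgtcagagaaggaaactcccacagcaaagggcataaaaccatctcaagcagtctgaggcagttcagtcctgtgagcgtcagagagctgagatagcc

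The E-box letters CAGGTG, the form known from binding of Snail and ZEB repressors at the E-cadherin promoter, occurred on either strand in 7 of the 9 windows (Krt7, Krt23, Epcam, Cldn4, Cldn7, Cdh1 and Prom1), and in 20.6% of 21770 protein-coding promoters of the same length. Cdh1 held 3 of them, 2 of which adjoin, at 69 to 58 bases before the start. Krt23, which did not rise, held 1, and Krt19 and Sox9, which did, held none, so the match did not separate the genes that rose from the one that did not. The AP-1 letters TGANTCA occurred in Epcam, Sox9 and Cldn4 (7.14% of all promoters), the ETS letters AGGAAG in 4 of the 9 (34.4%) and the Sp/KLF letters GGGCGG in 6 (42.5%). No window held the letters AACNGGTT of GRHL factors (2.07%), GGAATG of TEAD factors (14%) or GTGGGAA of RBPJ (6.35%), and the exact LXR repeat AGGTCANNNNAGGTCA occurred in 0 of the 21770. All were searched on both strands, and no match overlapped a match of another motif. A match is a description of the letters and not a binding site.

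**Figure D1:**
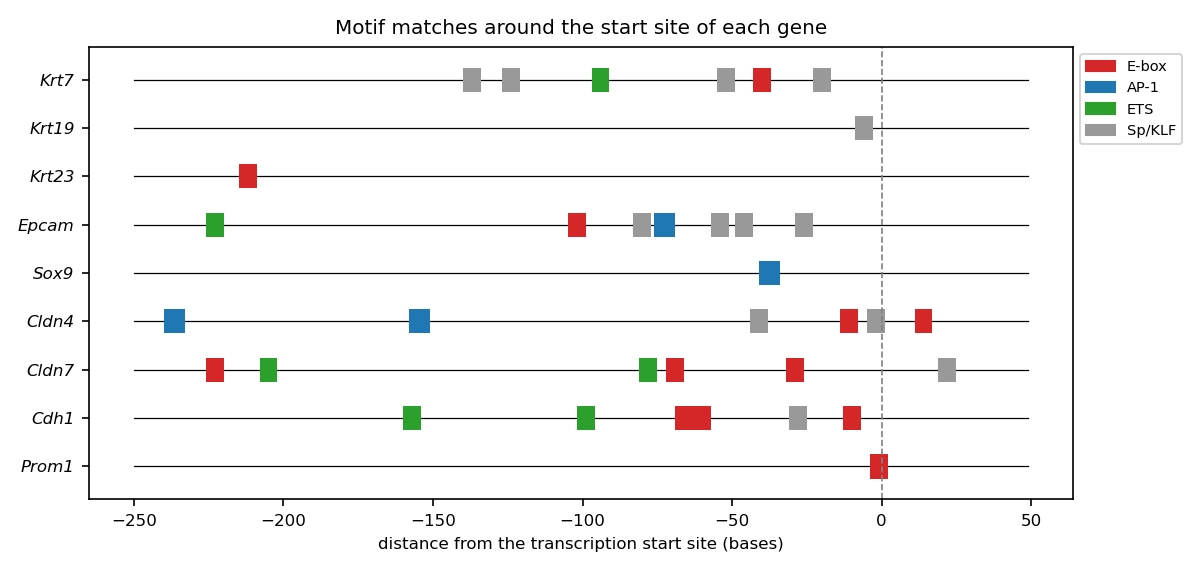
Motif matches in the window from 250 bases before to 50 after the start of each of the 9 genes. The x axis is the distance from the start site in bases, each coloured box is a match on either strand, and the dashed line is the start. E-box matches stand in 7 of the 9 windows, and in all of these but Krt23 at least 1 lies within 105 bases of the start.

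The first comparison asked how DN:HOM livers differed from DN:WT livers in these 9 genes. Of the 9, 8 were higher in DN:HOM livers (edgeR quasi-likelihood test, Benjamini-Hochberg adjusted p below 0.05) and none lower, against 29.1% of all 15711 genes tested that were called higher. Scaled by library size alone in place of TMM, the median of all genes moved up by 0.43 on the log2 scale, 59.1% of all genes were called higher, and the same 8 of 9 were. Cldn4 reached the low-count filter through the DN:HOM livers alone, since none of the 39 other livers held the 0.627 CPM that 10 reads make, so that its inclusion already favoured a difference. Without it 7 of 8 were higher. The median log2 fold change of the 9 was 3.58, beside -0.01 over all genes. The 8 genes also lay above every DN:WT liver in every DN:HOM liver, as 27.1% of all genes did while being called higher, and above each of the 39 other livers of the 6 groups, as 18.1% of all genes did.

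Keratins 7 and 19 are the filament proteins that distinguish bile duct cells from hepatocytes. Krt19 lay between 0.275 and 1.09 CPM in the DN:WT livers (median 0.801) and between 11.6 and 13.6 CPM in the DN:HOM livers (median 12.2). Krt7 lay between 0.137 and 0.898 CPM in DN:WT (median 0.442) and between 6.94 and 9.46 CPM in DN:HOM (median 7.77). The groups did not overlap for either gene. Krt19 rose 11.95-fold (log2 fold change 3.58, SE 0.39, adjusted p = 1.7e-10 by edgeR) and Krt7 11.8-fold (3.56, SE 0.35, adjusted p = 7.8e-12).

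Epcam encodes a surface adhesion molecule of biliary and progenitor epithelium, and Prom1 the membrane protein prominin-1 (CD133). Epcam ranged from 0.538 to 1.51 CPM in DN:WT livers (median 1.09) and from 20.2 to 24.8 CPM in DN:HOM livers (median 22.4). Prom1 ranged from 0.135 to 0.577 CPM (median 0.379) and from 5.34 to 11.6 CPM (median 7.68). Again no DN:HOM liver reached down to the DN:WT range. The rise was 16.05-fold for Epcam (4.0, SE 0.35, adjusted p = 3.9e-13 by edgeR) and 15.4-fold for Prom1 (3.95, SE 0.38, adjusted p = 8.4e-12).

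Sox9, the transcription factor that marks ductal and periportal progenitor cells, rose least of the 8. It ranged from 4.49 to 6.60 CPM in DN:WT (median 6.04) and from 20.2 to 41.7 CPM in DN:HOM (median 30.4), without overlap. The rise was 3.94-fold (1.98, SE 0.21, adjusted p = 9.3e-11 by edgeR).

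Claudins 4 and 7 are tight junction proteins of simple epithelia, and Cdh1 encodes E-cadherin, the adherens junction protein that periportal hepatocytes express as well as duct cells. Cldn4 was listed at 0 reads in 4 of the 7 DN:WT livers, with 6 reads over all 7 together, and ranged from 2.15 to 4.34 CPM in DN:HOM (35 to 71 reads). Cldn7 ranged from 0.126 to 0.504 CPM in DN:WT (2 to 8 reads) and from 3.82 to 6.71 CPM in DN:HOM (64 to 112 reads). Cdh1 ranged from 11.9 to 33.9 CPM in DN:WT (median 22.9) and from 174 to 241 CPM in DN:HOM (median 209). All 3 separated the groups. The rise was 37.1-fold for Cldn4 (approximate 95% interval 16.6 to 82.7), 15.1-fold for Cldn7 (7.96 to 28.5) and 7.15-fold for Cdh1 (4.43 to 11.5), with adjusted p by edgeR of 3.9e-10, 1.6e-09 and 3.5e-09. The size for Cldn4 depended on few reads. Its log2 fold change of 5.21 became 6.31 without DN:WT animal 7, which held 4 of the 6 reads, and 4.61 with unstranded counts.

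Krt23, a keratin reported to increase in injured liver, did not follow the others. It ranged from 2.33 to 8.39 CPM in DN:WT (median 6.27) and from 4.28 to 6.67 CPM in DN:HOM (median 4.85), so the DN:HOM range lay inside the DN:WT range. The log2 fold change was -0.66 (SE 0.47, adjusted p = 0.22 by edgeR), with an approximate 95% interval of 0.335 to 1.19-fold.

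The spread of the 8 genes among DN:HOM livers depended on the left-out liver. The coefficient of variation of CPM over the 7 livers was 5.52% for Krt19, 7.99% for Epcam, 11.3% for Cdh1 and 11.6% for Krt7, and was highest for Cldn4 at 25.4%, whereas with DN:HOM animal 12 it ran from 37.8% for Sox9 to 48.5% for Cldn4. In the 7 DN:WT livers it was larger for 7 of the 8, from 35.9% for Epcam to 167% for Cldn4, and smaller for Sox9 (13.5%, against 22.7% in DN:HOM). Krt7, Cldn4, Cldn7 and Prom1 held at most 14 reads in any of those DN:WT livers.

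With all 48 livers, the left-out pair included, the same 8 genes were called higher in DN:HOM livers (23% of all 15621 genes tested were), with adjusted p from 1.1e-04 for Krt7 to 2.5e-03 for Cldn4 by edgeR, and the groups overlapped for each. Their log2 fold changes were then smaller, from 1.18 for Sox9 to 2.43 for Cldn4. The liver labelled DN:WT animal 10 lay within the DN:HOM range of the 7 other livers for Sox9 (41.7 CPM), Cldn4 (3.10), Cldn7 (4.68), Cdh1 (208) and Prom1 (8.23), and just below it for Krt7 (6.08), Krt19 (10.003) and Epcam (19.2). The liver labelled DN:HOM animal 12 lay within the DN:WT range for Krt7 (0.518), Krt19 (0.389), Epcam (0.713), Cldn7 (0.130), Cdh1 (16.1), Prom1 (0.194) and Cldn4, which was listed at 0, and above it for Sox9 (7.19).

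**Figure D2:**
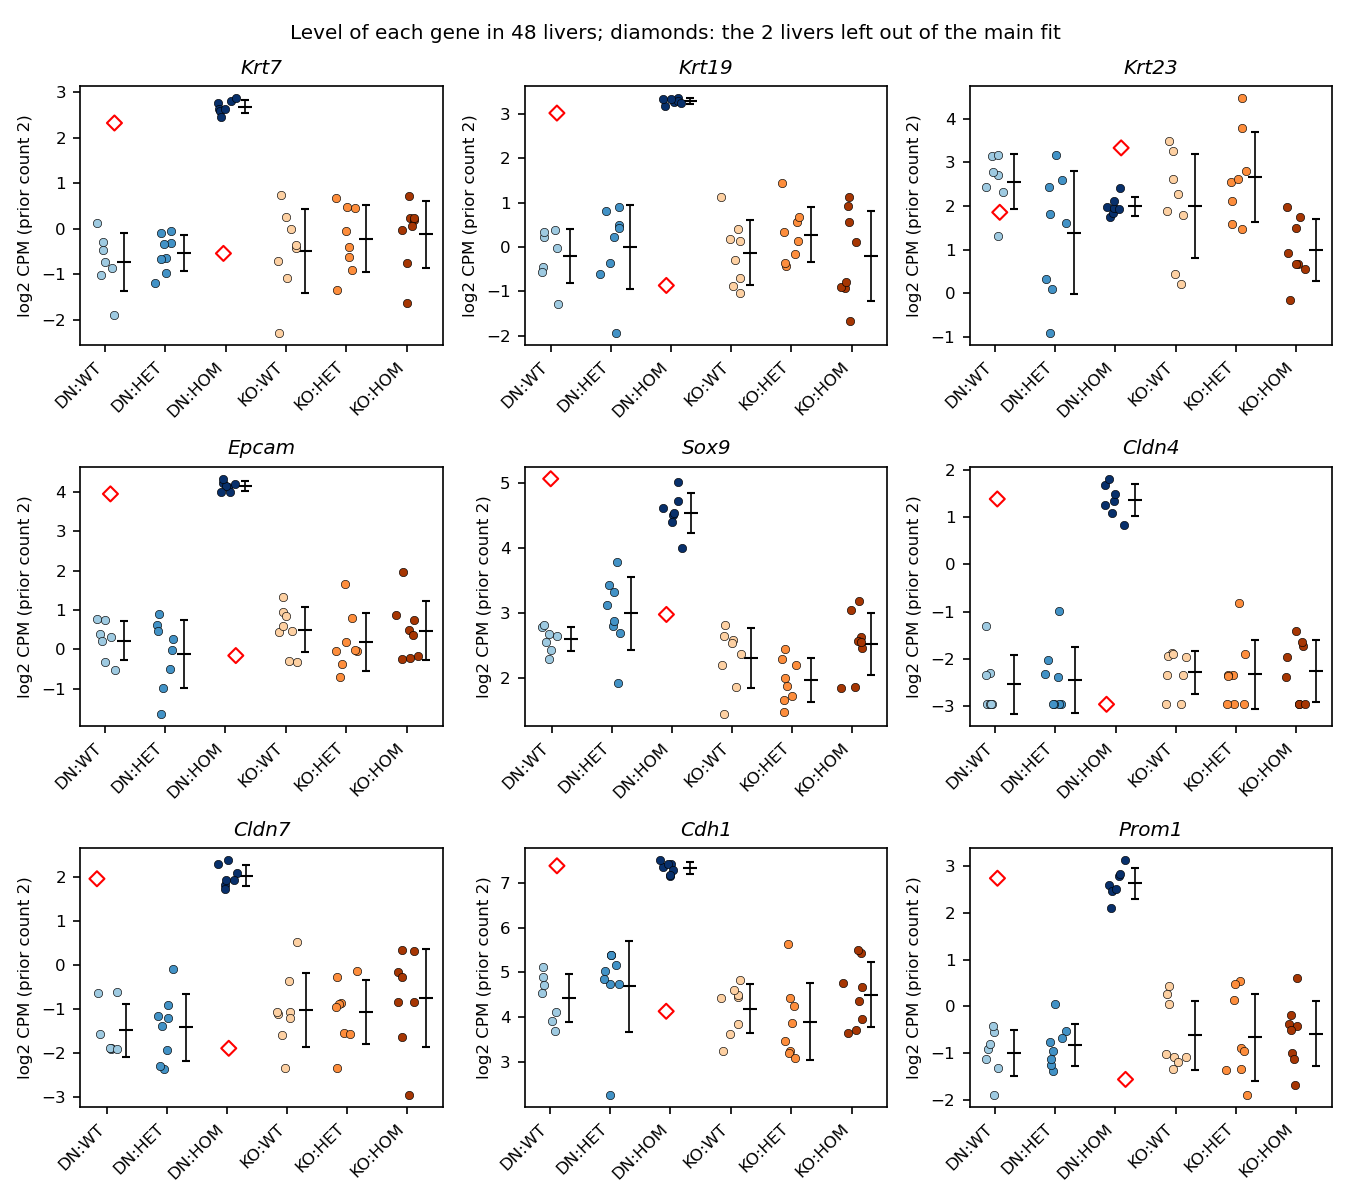
Level of each of the 9 genes in the 48 livers, as log2 CPM with a prior count of 2 on the y axis and the 6 genotype groups on the x axis. Points are single livers, the bar beside each group is the mean ± SD of the livers in the main fit, and open red diamonds are the 2 left-out livers, DN:WT animal 10 and DN:HOM animal 12. For 8 genes the 7 DN:HOM points stand above all points of the other groups other than the left-out DN:WT liver, and for Krt23 they do not.

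The second comparison asked whether loss of the receptor had the same effect as the knock-in. In KO:HOM against KO:WT livers 11.5% of all genes were called higher and 7.87% lower. Of the 9 genes 1 was called, Krt23, which was lower. None of the other 8 passed the test, with log2 fold changes from -0.02 for Prom1 to 0.41 for Cdh1 and a median over the 9 of 0.23, beside -0.02 over all genes. The intervals were wide. The approximate 95% interval was 0.685 to 1.69-fold for Epcam, 0.611 to 1.78-fold for Krt19, 0.741 to 1.87-fold for Krt7, 0.887 to 1.54-fold for Sox9 and 0.858 to 2.04-fold for Cdh1, and it reached 3.36-fold for Cldn4, 2.35-fold for Cldn7 and 1.65-fold for Prom1. For each of these 8 genes the upper bound was below the lower bound of the DN:HOM effect.

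In values, Epcam ranged from 0.616 to 2.21 CPM in KO:WT (median 1.22) and from 0.703 to 3.87 CPM in KO:HOM (median 1.24). Cdh1 ranged from 8.39 to 26.3 CPM in KO:WT (median 20.005) and from 11.7 to 44.5 CPM in KO:HOM (median 22.3), and Sox9 from 2.42 to 6.35 CPM (median 4.77) and from 3.36 to 9.33 CPM (median 5.67). The groups overlapped for all 9 genes, and 1 or more KO:HOM livers lay above the KO:WT range for 7 of the 9, all but Krt23 and Cldn7. Krt7 had medians of 0.582 and 0.947 CPM, Krt19 of 0.747 and 0.687 CPM, Prom1 of 0.329 and 0.580 CPM and Cldn7 of 0.301 and 0.583 CPM in KO:WT and KO:HOM livers. Cldn4 did not exceed 4 reads in any KO:WT or KO:HOM liver.

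Krt23 ranged from 1.0 to 9.69 CPM in KO:WT livers (median 3.8) and from 0.762 to 3.66 CPM in KO:HOM livers (median 1.62). It fell by 1.33 on the log2 scale (SE 0.47, adjusted p = 0.040 by edgeR), although the groups overlapped. The call did not hold with all 48 livers (adjusted p = 0.062), and leaving out 1 liver ended it in 8 of 16 cases (KO:HOM animals 8, 11, 26, 27 and 30, and KO:WT animals 23, 32 and 34), with adjusted p from 0.021 to 0.13. In KO:HET livers Krt23 ranged from 2.42 to 20.5 CPM (median 5.41).

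The difference between the homozygous effects, DN:HOM against DN:WT less KO:HOM against KO:WT, was tested directly. It was above 0 with an adjusted p below 0.05 by edgeR for 8 of the 9 genes, beside 16.5% of all genes, and for 7 of 8 without Cldn4, which reached the filter through the DN:HOM livers alone. For Cldn4 it was 4.90 on the log2 scale (SE 1.08), 5.99 without DN:WT animal 7 and 4.27 with unstranded counts. Of the other 7 it was largest for Prom1 (3.97, SE 0.54) and Epcam (3.90, SE 0.48), followed by Cldn7 (3.58, SE 0.67), Krt19 (3.52, SE 0.55), Krt7 (3.33, SE 0.49), Cdh1 (2.43, SE 0.47) and Sox9 (1.75, SE 0.29). Krt23 gave 0.66 (SE 0.66, adjusted p = 0.47). With all 48 livers 3 of the 9 were called, Epcam (adjusted p = 0.040), Krt7 (0.040) and Krt19 (0.049), beside 4.05% of all genes, and the log2 differences of the 8 fell to between 0.95 for Sox9 and 2.29 for Epcam.

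**Figure D3:**
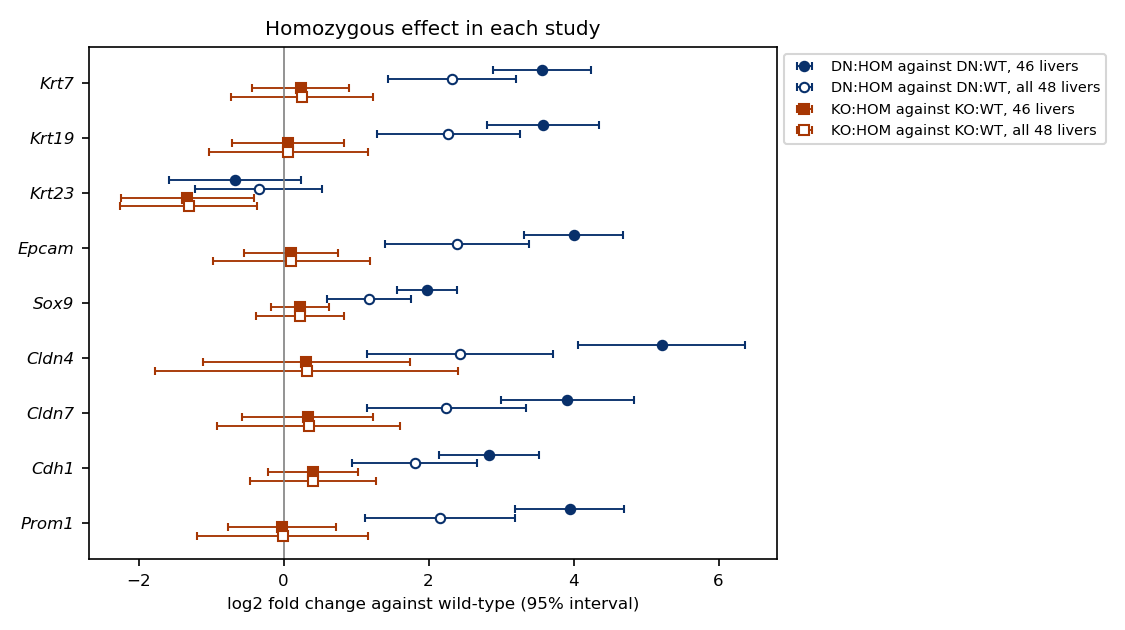
Log2 fold change of each gene in homozygous against wild-type livers of its own study, with its approximate 95% interval, on the x axis. Circles are the knock-in and squares the knockout study, filled for the 46 livers of the main fit and open for all 48. Apart from Krt23, each filled circle lies to the right of its filled square with no overlap of the intervals, from Sox9 at 1.98 against 0.23 to Cldn4 at 5.21 against 0.32.

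One copy of either allele was compared with none in the third comparison. In DN:HET against DN:WT livers none of the 9 genes was called by edgeR or by DESeq2, and 2.3% of all genes were called by edgeR. One of the 9, Sox9, had an unadjusted p below 0.05 by edgeR, with a range of 3.51 to 12.9 CPM in DN:HET livers (median 7.69), a log2 fold change of 0.48 (SE 0.21) and an adjusted p of 0.26. In KO:HET against KO:WT livers none was called by either tool, none had an unadjusted p below 0.05, and 0.0191% of all genes were called. The approximate 95% interval for Epcam was 0.525 to 1.42-fold in DN:HET and 0.534 to 1.36-fold in KO:HET livers, and for Krt19 0.744 to 2.24-fold and 0.804 to 2.28-fold. The highest DN:HET liver stood at 1.93 CPM for Epcam and 1.87 CPM for Krt19, below the lowest DN:HOM liver. In DN:HET livers 7 of the 9 log2 fold changes were above 0, and with all 48 livers, which adds DN:WT animal 10 to the reference group, all 9 were below 0. None of the 9 was called there either, and 3 had an unadjusted p below 0.05 by edgeR: Epcam (-1.63, adjusted p = 0.29), Cldn4 (-2.29, adjusted p = 0.47) and Prom1 (-1.38, adjusted p = 0.57).

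Wild-type livers of the studies were compared because the difference of effects depends on them. None of the 9 was called between DN:WT and KO:WT livers by edgeR or DESeq2, none had an unadjusted p below 0.05 by edgeR, and 12% of all genes were called. The log2 difference ran from -0.78 for Cldn7 to 0.29 for Krt23. With all 48 livers Sox9 was called higher in DN:WT (log2 0.91, adjusted p = 0.041 by edgeR).

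Levels between genes were compared per kilobase of summed exon length (RPKM). In DN:WT livers Cdh1 stood first (median 4.94 RPKM), followed by Krt23 (1.8) and Sox9 (1.45), and every other gene was below 0.5. In DN:HOM livers Cdh1 remained first (45.03 RPKM), followed by Epcam (8.65), Sox9 (7.27) and Krt19 (6.59), then Cldn7 (2.23), Cldn4 (1.69), Krt23 (1.39), Krt7 (1.10) and Prom1 (0.990). With the length of the canonical transcript alone, which is 4094 bases for Krt7 against 7049 bases of summed exons, Krt19 (7.75) passed Sox9 (7.27), and Prom1 (1.94) and Krt7 (1.90) passed Cldn4 (1.69) and Krt23 (1.39). Neighbours in this lower part of the order changed place with the length used.

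Within groups, the genes varied together only in part. After the group means were subtracted from log2 CPM, Pearson's r over the 46 livers was positive for 26 of the 28 pairs without Krt23, with a median of 0.30 and a range of -0.28 for Krt7 with Cdh1 to 0.54 for Cldn4 with Prom1. Epcam with Prom1 gave 0.53 and Epcam with Cldn7 0.47. The 8 pairs with Krt23 had a median of 0.06. The genes share libraries and scaling, and outside DN:HOM Cldn4, Cldn7, Krt7 and Prom1 rest on at most 24 reads a liver, so these are descriptions.

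**Figure D4:**
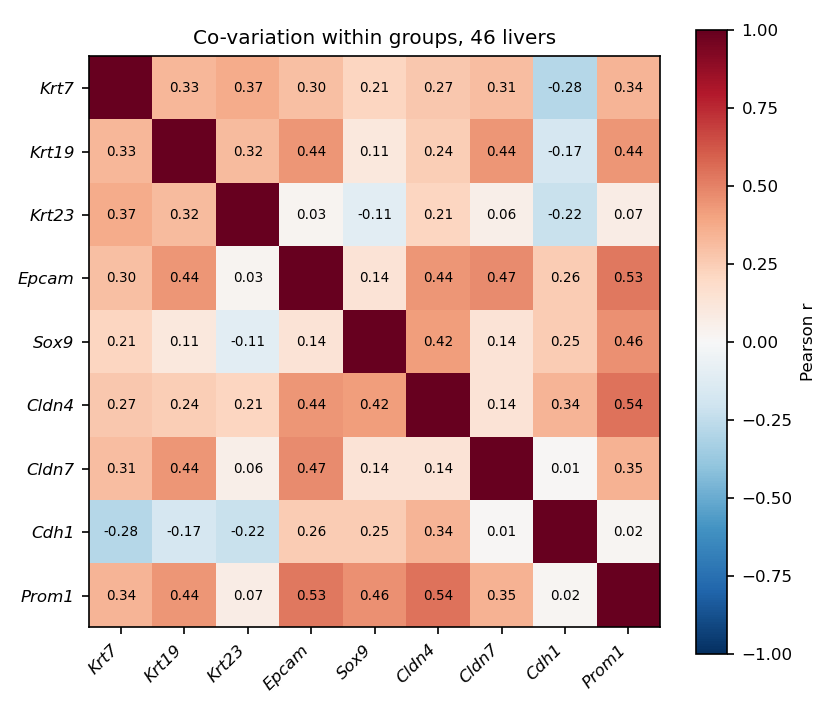
Pearson's r between each pair of the 9 genes over 46 livers, on log2 CPM after subtraction of the mean of each genotype group. Both axes list the genes, colour gives r from -1 to 1, and each cell prints its value. Epcam, Prom1, Cldn4 and Krt19 correlate at 0.24 to 0.54 with one another, and Cdh1 is negative with each keratin.

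The genes most like the 9 over the 46 livers, by Pearson's r with the mean of their scaled log2 CPM and among 13154 other genes with a mean log2 CPM above 0, were Tspan8 (r = 0.95), Bicc1 (0.95), Sparcl1 (0.94), Cd24a (0.94), Nid1 (0.94), Rragd (0.94), Alcam (0.94) and Npdc1 (0.93). The mean of the 9 is itself set apart in DN:HOM livers, so genes chosen this way had to be higher there too, and their log2 fold changes, from 1.90 for Alcam to 4.92 for Tspan8, restate the choice. After the group means were subtracted, the 8 highest were Mcm6 (r = 0.77), Col6a1 (0.72), Nid1 (0.71), Ltbp3 (0.71), Bicc1 (0.70), Setd7 (0.70), Bgn (0.70) and Col6a3 (0.69). Nid1, which encodes the basement membrane protein nidogen-1, and Bicc1, an RNA-binding protein whose loss gives cystic bile ducts and kidneys, stand in both sets.

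Other genes of the same cells were taken from lists written by hand. The counts below stand beside 29.1% of all genes called higher and 30% called lower in DN:HOM livers, and 11.5% higher and 7.87% lower in KO:HOM livers. For the difference of the effects, DN:HOM less KO:HOM, 16.5% of all genes were called higher and 18.3% lower, and with all 48 livers 4.05% and 6.42%. With library size alone 11021 of the 15711 genes were called in DN:HOM livers and 84.2% of these calls were higher, which is 59.1% of all genes. In KO:HOM livers 3059 genes were then called, and 85.7% of these calls were higher. Like Cldn4, some list genes were tested only through DN:HOM livers, in that fewer than 7 of the 39 other livers reached 0.627 CPM, and these are named because their inclusion favoured a higher call. The list medians and the counts for the difference of the effects include them. Of 19 genes of biliary transport and cilia, 17 were tested, and 14 were higher and 1 lower in DN:HOM livers (median log2 fold change 2.05), whereas 3 were higher in KO:HOM livers (median -0.05). The chloride channel gene Cftr rose by a log2 fold change of 4.01, from a median of 0.269 to 4.85 CPM, the secretin receptor gene Sctr by 3.99 and the tetraspanin gene Tspan8 by 4.92 (adjusted p by edgeR at most 4.5e-07). Aqp4, the water channel found on cholangiocytes and in other tissues, was the one that fell (-4.29, adjusted p = 1.5e-14), from a median of 13 to 0.844 CPM. Pkhd1, Pkd2 and Muc1 were the 3 that rose in KO:HOM livers, by 0.62, 0.24 and 1.11. Cftr and Sctr were tested only through DN:HOM livers, and without them 12 of 15 were higher. The difference of the effects was called higher for 13 of the 17 and lower for 1, and for 4 and none with all 48 livers. Cftr and Sctr were among the 13, so that their inclusion favoured this count as well. With all 48 livers 14 were higher and 1 lower in DN:HOM (median 1.36) and 1 higher in KO:HOM livers, beside 23% of all genes higher and 25% lower in DN:HOM and 8.79% higher and 4.12% lower in KO:HOM livers.

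Of 10 transcription factors of bile duct cells, all tested, 8 were higher and 1 lower in DN:HOM livers (median 3.28) and 1 was higher in KO:HOM livers (median 0.30). Ehf rose by 4.40, Elf3 by 4.18 and Klf5 by 3.79, all factors of epithelial cells, and Onecut1, which is also a hepatocyte factor, fell by 1.56 (adjusted p = 0.0497 by edgeR, and 0.14 with library size alone). Elf3 was the one that rose in KO:HOM livers, by 2.55 (adjusted p = 1.8e-04). Klf5, Grhl2 and Tead4 were tested only through DN:HOM livers, and without them 5 of 7 were higher. The difference of the effects was called higher for 6 of the 10, and for 2 with all 48 livers. Klf5 and Grhl2 were among the 6, so that their inclusion favoured this count as well, and Tead4 was not. Over all 48 livers 7 were higher and none lower in DN:HOM livers (median 1.82), and 1 was higher in KO:HOM livers.

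Of 18 genes of the ductular reaction and of progenitor cells, 14 were tested, and 12 were higher and 1 lower in DN:HOM livers (median 3.15), against 5 higher in KO:HOM livers (median 0.55). The matrix protease gene Mmp7 rose by 6.14 from a median of 0 to 8.40 CPM, Lcn2, which neutrophils and injured hepatocytes make as well, by 4.76, and Spp1 (osteopontin), which macrophages make as well, by 4.57. Lamb3 fell by 1.65. In KO:HOM livers Mmp7 rose by 2.79, Lcn2 by 2.44, Vtcn1 by 2.23, Spp1 by 1.42 and Cd44 by 1.09. The summed level of the list ran from 1337 to 3034 CPM in DN:HOM livers, from 69.7 to 165 CPM in DN:WT and from 88.8 to 630 CPM in KO:HOM livers. In DN:HET livers it ran from 87.2 to 689 CPM. The median sum in DN:HOM livers was 2172 CPM, with medians of 1096 CPM for Spp1 and 893 CPM for Lcn2. These genes, which other cells make as well, thus carried much of the sum. Mmp7, Itgb6 and Ncam1 were tested only through DN:HOM livers, and without them 9 of 11 were higher. The difference of the effects was called higher for 11 of the 14 and lower for 1, and for 2 and none with all 48 livers. Mmp7, Itgb6 and Ncam1 were all among the 11, so that their inclusion favoured this count as well. When all 48 livers were fitted, 12 were higher and 1 lower in DN:HOM (median 1.90), and 3 were higher in KO:HOM livers.

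The Notch pathway directs biliary fate in the developing liver. Of its 15 listed genes 14 were tested, and 8 were higher in DN:HOM livers (median 0.40) and 1, Heyl, in KO:HOM livers (median 0.11). The ligand gene Jag1 rose by 1.05, and among targets Hey1 rose by 1.78, Heyl by 1.16 and Hes1 by 0.86. The target Nrarp (0.26, adjusted p = 0.41 by edgeR) was not called, nor were the ligand genes Dll1 (0.15, adjusted p = 0.41) and Dll4 (-0.31, adjusted p = 0.20). The receptor genes Notch2 (0.45) and Notch3 (1.31) rose, and Notch1 (0.16, adjusted p = 0.37) did not pass the test. The difference of the effects was called for 3 of the 14, Jag1, Notch2 and Hes1, beside 16.5% of all genes, for none with all 48 livers (edgeR), and for 8 with library size alone, beside 37.7% of all genes. For Hey1, Notch3 and Heyl its adjusted p was 0.057, 0.14 and 0.60. With library size alone 12 of the 14, Notch1 among them, were higher in DN:HOM livers, beside 59.1% of all genes, and 2 in KO:HOM livers. Of 31 further keratins and junction genes, 30 were tested, with 19 higher and 2 lower in DN:HOM livers (median 0.52) and 2 higher and 1 lower in KO:HOM livers (median 0.01). The protease gene St14 rose by 4.85, Cldn8 by 3.72 and Spint1 by 3.51, while Cldn12 fell by 0.70 and Cldn2 by 0.40. With library size alone 27 were higher and 1 lower in DN:HOM livers, beside 59.1% of all genes higher. In KO:HOM livers 4 were then higher and 1 lower, where 3059 of 15711 genes were called and 85.7% of those were higher. Cldn2 was at 0.03 in DN:HOM livers under that scaling (adjusted p = 0.84 by edgeR). Cldn6, Cldn8, Cldn15 and Esrp1 were tested only through DN:HOM livers, and without them 15 of 26 were higher. The difference of the effects was called higher for 16 of the 30 and lower for 1, and for 6 of 29 and none with all 48 livers. Cldn6, Cldn8, Cldn15 and Esrp1 were all among the 16, so that their inclusion favoured this count as well. Krt8 and Krt18, the keratins that hepatocytes also carry, rose by 1.83 and 1.74. In the fit of all 48 livers 7 Notch genes were higher in DN:HOM (median 0.27) and none in KO:HOM livers, and of 29 keratins and junction genes tested 17 were higher and 1 lower in DN:HOM (median 0.29) and 1 was higher in KO:HOM livers.

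Markers of other liver cells moved in the same livers. All 8 proliferation genes tested were higher in DN:HOM livers (median 2.85) and 1 in KO:HOM livers, and their summed level ran from 80.8 to 141 CPM in DN:HOM, from 7.96 to 18.2 CPM in DN:WT and from 9.90 to 35.8 CPM in KO:HOM livers. Of 12 genes of stellate cells and fibroblasts, 11 were higher in DN:HOM (median 2.11) and 8 in KO:HOM livers (median 0.72). Of 12 macrophage genes, 8 were higher and 4 lower in DN:HOM livers and 7 higher and 3 lower in KO:HOM livers, the lower ones among the Kupffer cell genes Cd163, Clec4f, Timd4 and Marco. Of 10 hepatocyte genes, 7 were lower in DN:HOM (median -0.77) and 5 in KO:HOM livers (median -0.30), with a summed level of 51922 to 61617 CPM in DN:HOM and 71586 to 83130 CPM in DN:WT livers. With library size alone 6 hepatocyte genes were lower and 3 higher in DN:HOM livers, beside 59.1% of all genes higher, and 2 were lower in KO:HOM livers. Among all 48 livers 7 proliferation genes were higher in DN:HOM (median 1.39) and none in KO:HOM livers, and 10 stellate cell genes were higher in DN:HOM (median 1.39) and 2 in KO:HOM livers. The difference of the effects was called higher for 6 proliferation and 7 stellate cell genes, and for none of either with all 48 livers (edgeR). Of the macrophage genes, over all 48 livers, 7 were higher and 4 lower in DN:HOM and 6 higher and 2 lower in KO:HOM livers, and of the hepatocyte genes 7 were lower in DN:HOM and 2 in KO:HOM livers.

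Mesothelial cells of the liver capsule express some of the same keratins. Of their 9 listed genes 8 were tested, with 3 higher in DN:HOM livers (Msln, Wt1 and Gpm6a, by 1.6, 1.86 and 2.18) and none called in KO:HOM livers. With library size alone 6 were higher in DN:HOM livers, Upk1b, Upk3b and Rspo1 in addition, beside 59.1% of all genes. The summed level ran from 12.3 to 27.8 CPM in DN:HOM and from 3.37 to 12.7 CPM in DN:WT livers. Of the pancreatic acinar genes 1 of 10, Cela1, was tested. It was lower in KO:HOM livers (log2 fold change -1.13, adjusted p = 0.0091 by edgeR), with all 48 livers as well, and was not called in DN:HOM livers (0.10). Its medians were 13.7 CPM in KO:WT and 10.3 CPM in KO:HOM livers. Its difference of the effects was called higher (1.24, adjusted p = 0.035 by edgeR), but not with all 48 livers (1.22). The other 9 had medians from 0 to 0.184 CPM in the homozygous and wild-type groups. The KO:WT liver of animal 1 held 442 CPM over the acinar list, and without it Krt23 gave a log2 fold change of -1.34 in KO:HOM livers (adjusted p = 0.049 by edgeR). Whether the Cela1 call rests on that liver was not tested. Of 8 dendritic cell genes tested, 4 were higher in DN:HOM and 6 in KO:HOM livers. Of 6 B and plasma cell genes, 1 was higher and 2 lower in DN:HOM and none called in KO:HOM livers, a share lower in DN:HOM near that of all genes, and of 9 endothelial genes 1 was higher and 5 lower in DN:HOM and 1 higher and 1 lower in KO:HOM livers. With library size alone 2 endothelial genes were higher and 1 lower in DN:HOM livers, and 1 B or plasma cell gene was higher and none lower. The share of all genes called higher there was 59.1%. Over all 48 livers 2 mesothelial genes and 4 dendritic cell genes were higher in DN:HOM, 4 dendritic cell genes were higher in KO:HOM, no B or plasma cell gene was called by edgeR in either, and 5 endothelial genes were lower in DN:HOM and 1 higher and 1 lower in KO:HOM livers. The part of any of these cells in the levels of the 9 genes was not tested.

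**Figure D5:**
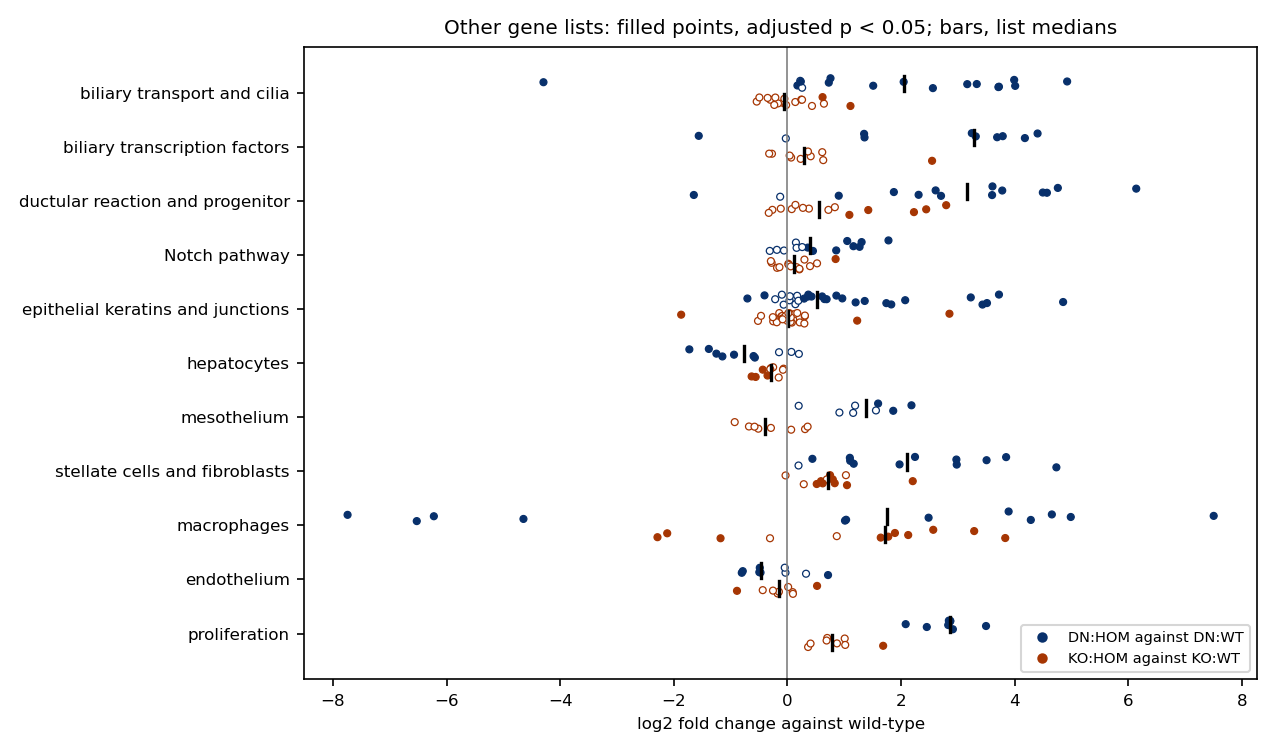
Log2 fold change against wild-type livers on the x axis for each tested gene of 11 lists, with the knock-in study in blue and the knockout study in orange. Filled points passed an adjusted p of 0.05 by edgeR, and black bars are the list medians. The medians of the transport, transcription factor and ductular lists are 2.05, 3.28 and 3.15 in DN:HOM and -0.05, 0.30 and 0.55 in KO:HOM livers. These medians include genes that were tested only through DN:HOM livers.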

How the data were processed

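Liver polyA RNA of 48 mice was sequenced from stranded libraries. The authors aligned reads with STAR 2.5.0a to GRCm39 (release 104) and deposited unnormalized counts of reads for every gene, unstranded and per strand. The column of the strand that held 6.97 to 8.62 times the reads of the other was used here. The 4 summary lines that name no gene (24.0% to 35.0% of reads) were left out. Of 55416 identifiers, 54749 had a symbol in GENCODE M39.

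Groups came from the genotype labels. The main fit held 46 livers, the 24 KO livers and the 22 DN livers whose counts match the per-animal values of 3 genes that the study gives for DN mice. Genes were tested with edgeR 4.0.16 (R 4.3.3; filterByExpr, TMM scaling, quasi-likelihood test, 6 group means), with Benjamini-Hochberg adjustment over all genes and a threshold of 0.05. Fold changes come from this fit, intervals from its SE, and levels in text are plain CPM without TMM factors. Log2 CPM used a prior count of 2. All 9 genes passed the filter, so no permutation test was needed. Alternatives included DESeq2 1.42.0, other filters and scalings, unstranded counts and leaving out single livers. Scripts were tested on simulated data. Python 3.11.15 with pandas, scipy and matplotlib made tables and figures.

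The 9 genes and the 14 other lists were chosen with earlier results of these data known. Named genes are these 9, Nr1h3, overlapping genes, called list genes with the 3 largest rises or falls and list genes whose value stands beside a result, and the 8 most similar genes by each measure. Of the lists, 1 gene is not reported here and is not counted. Some list genes outside the 3 largest were named after their values were seen. Small differences of genes with few reads were not detectable at this depth.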

Additional observations from a re-analysis of the deposited data

Results flagged for a closer look

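In the groups as labelled, single livers stood far from the others of their group in 17 cases by Dixon's test on log2 CPM, of 54 combinations of gene and group, where chance flags about 1 in 20. The liver labelled DN:WT animal 10 accounted for 7 of them, as the highest of its group for Krt19 (10.003 CPM), Epcam (19.2), Sox9 (41.7), Cldn4 (3.10), Cldn7 (4.68), Cdh1 (208) and Prom1 (8.23). The liver labelled DN:HOM animal 12 accounted for 8, as the lowest of its group for Krt7 (0.518 CPM), Krt19 (0.389), Epcam (0.713), Cldn4 (0), Cldn7 (0.130), Cdh1 (16.1) and Prom1 (0.194), and as the highest for Krt23 (9.20). The other cases were DN:HET animal 20, the highest for Cldn4 (0.353 CPM, 5 reads), and DN:HET animal 1, the lowest for Cdh1 (4.34 CPM).

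The homozygous effect differed between the studies, by the test of the difference in edgeR, for 8 genes, with log2 differences of 3.33 for Krt7, 3.52 for Krt19, 3.90 for Epcam, 1.75 for Sox9, 4.90 for Cldn4, 3.58 for Cldn7, 2.43 for Cdh1 and 3.97 for Prom1. The largest adjusted p among them was 3.8e-04, for Cldn4, which was tested only through its reads in DN:HOM livers. The same test called 16.5% of all genes higher. With all 48 livers it called 3 of the 9, Krt7, Krt19 and Epcam, and Cldn4 had an adjusted p of 0.32. Site and colony cannot be told apart from the allele in this difference.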

How the results depend on the processing

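The count of 8 genes higher in DN:HOM livers was 8 under the alternatives run, including all 48 livers, a minimum log2 fold change of 1 and an adjusted p below 0.01, other than a mean CPM of at least 1, which left 8 of the 9 tested and 7 called, and leaving out single livers gave 8 each time. The 1 call in KO:HOM livers, Krt23, became 0 with all 48 livers, without a low-count filter, with library size alone, with each study fitted alone and at an adjusted p below 0.01, and leaving out single livers gave 0 to 1. The cause was not tested. For the difference of effects, 8 became 3 with all 48 livers and 7 of 8 tested at a mean CPM of at least 1, and between wild-type livers 0 became 1, which adds a liver to each DN group compared. Both heterozygous comparisons gave 0 throughout, and no called value changed sign. With library size alone the median of all genes moved by 0.43 in DN:HOM and 0.12 in KO:HOM livers (log2) against TMM scaling, and the share of calls that were higher went from 49.3% to 84.2% in DN:HOM, from 59.4% to 85.7% in KO:HOM and from 47.4% to 81.6% in the difference (upper-quartile scaling, 69.5% in KO:HOM). The leave-one-out fits were chosen after seeing the data. No paired analysis was possible because the numbers in the labels name single mice and no mouse occurs in 2 groups compared. Outside DN:HOM livers, Cldn4, Cldn7, Krt7 and Prom1 rest on 0 to 24 reads a liver in the main fit, which limits what could be detected there.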
